A study of Homo sapiens with 6 samples.

Results

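Among the 11540 peaks of RNA polymerase II (Pol II) listed for BMH-21-treated LNCaP cells, 2101 lay within 1000 bp of a Pol II peak listed for DMSO-treated cells and outside dense runs of peaks. These adjacent peaks made up 18.2% of the list (interval 17.5 to 18.9). They were chosen by position in both Pol II lists: the gap, counted as the bases between the facing edges, was at most 1000 bp, and peaks in a run of 10 or more listed BMH-21 peaks with no gap above 10 kb were left out. The same distance was met by 19.2% of all BMH-21 Pol II peaks, and by 21.5% of the 9774 peaks outside runs. These shares are set by the rule and are given as a description. The 4 peak lists of the series held 84817 peaks in all. No BMH-21 Pol II peak overlapped a DMSO Pol II peak (0 of 11540, where a count of 3 would make 0.0260%). Whether positions found under both treatments were taken out of the lists is not given in the sources.

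LNCaP is an androgen-responsive human prostate cancer cell line. The cells received BMH-21 at 1 µM for 6 h or the solvent DMSO, and chromatin was immunoprecipitated with an antibody against RNA polymerase I (Pol I) or one directed, per the labels, against the serine 5-phosphorylated C-terminal repeats of Pol II. Each antibody and treatment had 1 library with a peak list, which makes 4 lists, and the 2 input libraries of the 6 samples were not analysed here. With 1 library per group, differences between treatments carry neither a replicate spread nor a test. The intervals in parentheses are exact Clopper-Pearson 95% intervals and cover counting error over peaks only.

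BMH-21 inserts itself between DNA base pairs and blocks Pol I, the enzyme that makes the ribosomal RNA precursor in the nucleolus. Pol II transcribes protein-coding genes, and the kinase of the general factor TFIIH phosphorylates serine 5 of its C-terminal repeats as transcription starts, so this form is known to be dense near gene starts. A peak is a stretch of genome where a caller found more fragments than in its background model. A small shift of a peak cannot be told apart here from a change in which of several neighbouring peaks passed the caller's threshold, nor a change in position from a change in phosphorylation. All coordinates are those of hg19. Gene models for this assembly were not used, so regions are named by position, and the marker genes of LNCaP were not examined.

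The adjacent peaks were more numerous at short gaps than at long ones. The rule used this gap, and no expected distribution was computed, so the counts are a description. Their gap to the nearest DMSO Pol II peak had a median of 328 bp, with quartiles of 131 and 606 bp. The first 100 bp held 406 of them, the next 100 bp held 332, and the bin from 901 to 1000 bp held 95. In all, 1000 adjacent peaks (47.6%) lay within 300 bp, and 5 touched a DMSO peak with no base between. Beyond the limit the counts continued from a like level and declined further, with 128 peaks from 1001 to 1100 bp, 76 from 1901 to 2000 bp and 41 from 2901 to 3000 bp. The median score was 59.1 in the last bin inside the limit and 58.8 in the first bin outside it, and the median widths there were 260.0 and 256 bp. The adjacent peak nearest to the limit lay on chromosome 2 at 203738053 to 203738283, exactly 1000 bp from a DMSO peak, with a score of 50.7. The first peak beyond lay on chromosome 7 at 76250004 to 76250218, with a gap of 1001 bp and a score of 64.2.

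**Figure D1:**
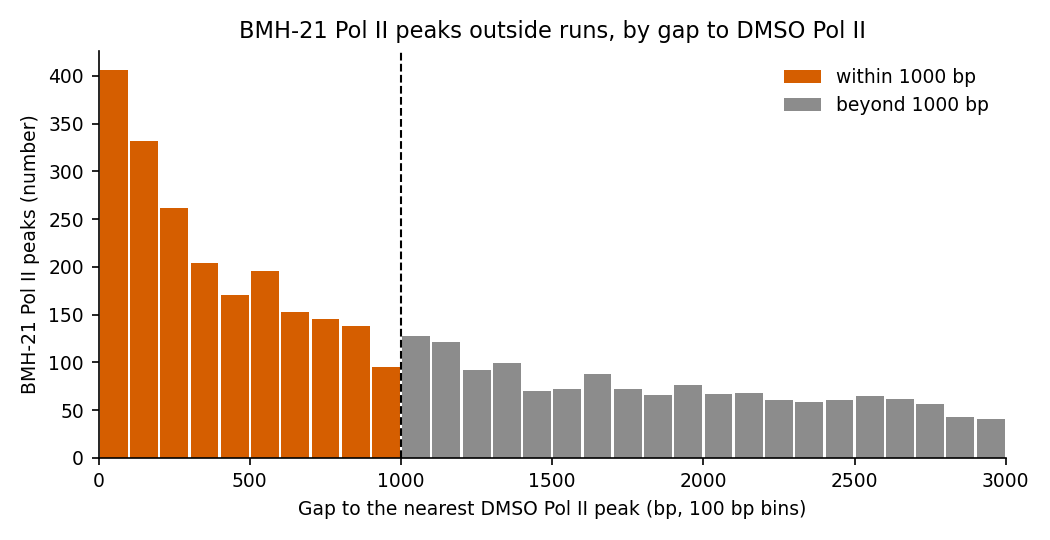
Number of BMH-21 Pol II peaks outside runs (vertical axis) by the gap to the nearest DMSO Pol II peak in 100 bp bins (horizontal axis), with the 1000 bp limit as a dashed line and adjacent peaks in orange. The first 100 bp hold 406 peaks, the last bin inside the limit 95 and the first bin beyond it 128.

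The adjacent peaks were split almost evenly between the sides of the DMSO peaks. The nearest DMSO peak lay on the side of lower coordinates for 1062 adjacent peaks (50.5%, interval 48.4 to 52.7) and on the side of higher coordinates for 1038, and for 1 peak both were equally far. DMSO peaks stood within 1000 bp on both sides of 346 adjacent peaks (16.5%, interval 14.9 to 18.1). For these enclosed peaks both gaps together came to a median of 780.5 bp, and the BMH-21 peak filled a median of 27.1% of the stretch between its DMSO neighbours. The enclosed peaks had a median width of 270.5 bp against 255 bp for peaks with a DMSO neighbour on 1 side. Their median score was 59.8 against 58.7.

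From the DMSO side, 2423 of 28798 Pol II peaks (8.41%, interval 8.10 to 8.74) had an adjacent BMH-21 peak within 1000 bp. Most of these DMSO neighbours, 2248, had 1 adjacent peak, 166 had 2 and 9 had 3. In 95 cases the DMSO peak had BMH-21 peaks on both of its sides. Linked through gaps of at most 1000 bp, adjacent peaks and DMSO neighbours formed 1928 clusters, of which 1402 (72.7%) were a single pair and 111 held 4 or more peaks. Peaks of 1 cluster share a locus and are not independent, so the intervals over peaks are too narrow.

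The cluster with the most peaks lay on chromosome 2 at 160084786 to 160089995 and held 2 BMH-21 peaks and 5 DMSO peaks over 5210 bp. Another, on chromosome 22 at 29680447 to 29684204, held 3 of each over 3758 bp. There the BMH-21 peaks at 29680914 to 29681140, 29681494 to 29681820 and 29682627 to 29682870 had scores of 52.8, 73.5 and 75.1. The DMSO peak between the second and the third, at 29681901 to 29682616, had a score of 134 and lay 80 bp from the second and 10 bp from the third. It was first among the DMSO peaks with the most BMH-21 neighbours, ordered by the summed score of those neighbours. The next 4 such DMSO peaks also had 3 adjacent peaks each. On chromosome 19 the DMSO peak at 14522905 to 14523372 had 2 of them on its lower side and 1 on its upper side. On chromosome 11 all 3 lay below the DMSO peak at 66013468 to 66013860, at gaps of 782, 400 and 142 bp. On chromosome 6 a DMSO peak 1572 bp wide, at 144735191 to 144736762, with a score of 339, had 2 below and 1 above. On chromosome 2 the DMSO peak at 215594748 to 215595425 had 1 below and 2 above.

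Adjacent peaks were narrow and low in score, and so were most of the remaining BMH-21 Pol II peaks outside runs. The authors gave each peak a score, used here to rank peaks of the same list, and the lists hold no value below 50. Adjacent peaks had a median score of 58.8 (quartiles 53.4 and 69.4), against 58.8 (53.3 and 69.8) for the 7673 remaining BMH-21 Pol II peaks outside runs. Median widths were 256 and 257 bp in the same order. A score of 100 or more was held by 102 adjacent peaks (4.85%, interval 3.98 to 5.86) and by 484 remaining peaks (6.31%, interval 5.77 to 6.88), with intervals that overlapped. A score of 150 or more was held by 9 adjacent peaks (0.428%, interval 0.196 to 0.812) and by 98 remaining peaks (1.28%, interval 1.04 to 1.55). A width above 500 bp was found for 72 adjacent peaks (3.43%, interval 2.69 to 4.30) and 355 remaining peaks (4.63%, interval 4.17 to 5.12), again with overlapping intervals. A width above 1000 bp was found for 2 adjacent peaks (0.0952%, interval 0.0115 to 0.343) and 67 remaining peaks (0.873%, interval 0.677 to 1.11). The highest score was 204 among adjacent peaks and 1097 among the remaining ones. In runs, the median score was 112 and the median width 551.5 bp. Adjacent peaks covered 0.6003 Mb in all.

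**Figure D2:**
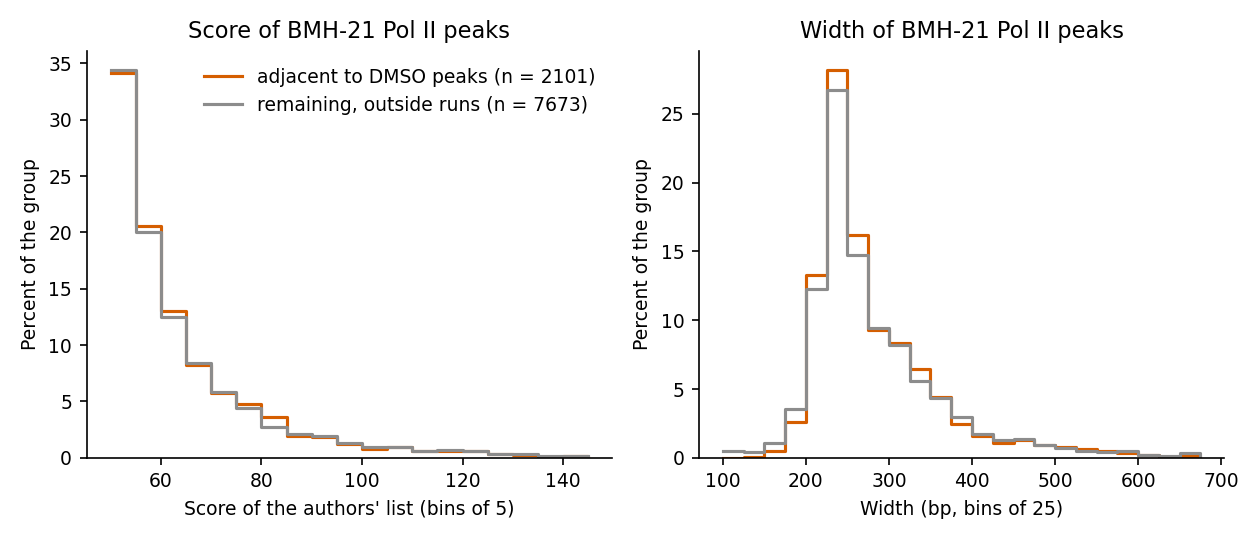
Share of BMH-21 Pol II peaks in percent (vertical axes) by score in bins of 5 (left) and by width in bins of 25 bp (right), for adjacent peaks (orange) and the remaining peaks outside runs (grey), with scores from 145 up, widths from 675 bp up and widths below 100 bp not drawn. The lines lie close together, with median scores of 58.8 in both groups and median widths of 256 and 257 bp.

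The DMSO peaks beside them were wider. The nearest DMSO peak was a median of 1.88 times as wide as the BMH-21 peak, and 120 adjacent peaks (5.71%) were wider than it. Widths depend on the caller's threshold and the depth of each library, which are unknown here. Among DMSO peaks, those with an adjacent BMH-21 peak had a median width of 511 bp and a median score of 79.6, against 497 bp and 81.2 for those without one. When all DMSO peaks were ordered by score into 4 classes of like size, the share with an adjacent peak was 8.63%, 8.67% and 8.83% in the lower 3 and 7.53% (interval 6.93 to 8.16) in the highest. The score of an adjacent peak did not follow that of its DMSO neighbour, with a Spearman rho of 0.0053 over 2101 pairs, nor the gap, with a rho of 0.016. Within the adjacent peaks, width and score rose together (rho 0.569). These are descriptions over peaks, and pairs that share a neighbour are not independent.

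The adjacent peak with the highest score lay on chromosome 10 at 70539017 to 70539887. It was 871 bp wide, had a score of 204, and its DMSO neighbour began 916 bp further on, at 70540804. Second was a peak of chromosome 11, spanning 502467 to 503044, which scored 200.5 and left a gap of 75 bp to the DMSO peak at 503120 to 503683. Chromosome 22 held the third, at 36718792 to 36719479, with a score of 170.2 and a gap of 807 bp. Its DMSO neighbour belonged to a dense run of DMSO peaks. The gaps of these leading peaks spread over the whole range up to the limit. The fourth lay on chromosome 7 at 66791536 to 66792116 and scored 166 at a gap of 981 bp. In the fifth case, on chromosome 15, 6 bp parted a BMH-21 peak at 69076767 to 69077429, which scored 165, from a DMSO peak that ended at 69076760. On chromosome 5, at 150085681 to 150086239, a peak with a score of 162 was enclosed, 58 bp from the DMSO peak below it and 65 bp from the one above. The seventh was a peak of chromosome 2 at 189293094 to 189293707 (score 155, gap 521 bp). The eighth, on chromosome 19 at 37311060 to 37311485, had a score of 151.4 and a gap of 592 bp. Chromosome 17 held the ninth at 43596952 to 43597526 (score 150.4, gap 127 bp). The tenth, on chromosome 7, spanned 14019999 to 14020949 and had a score of 147 and a gap of 246 bp.

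After the chromosome 5 peak, the enclosed peaks with the highest scores had longer gaps. On chromosome 15 a peak at 99394238 to 99395018 (score 134) lay 550 bp above one DMSO peak and 430 bp below the other. Gaps of 109 and 188 bp enclosed a peak on chromosome 12 at 105573052 to 105573442 (score 125). The chromosome 15 peak at 93493363 to 93493921 (score 125) had gaps of 61 and 146 bp. For a peak of chromosome 8, at 80961607 to 80962337 (score 120.0), the gaps were 453 and 541 bp. Except for the chromosome 5 peak, these enclosed peaks stood beside DMSO peaks of a run.

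**Figure D3:**
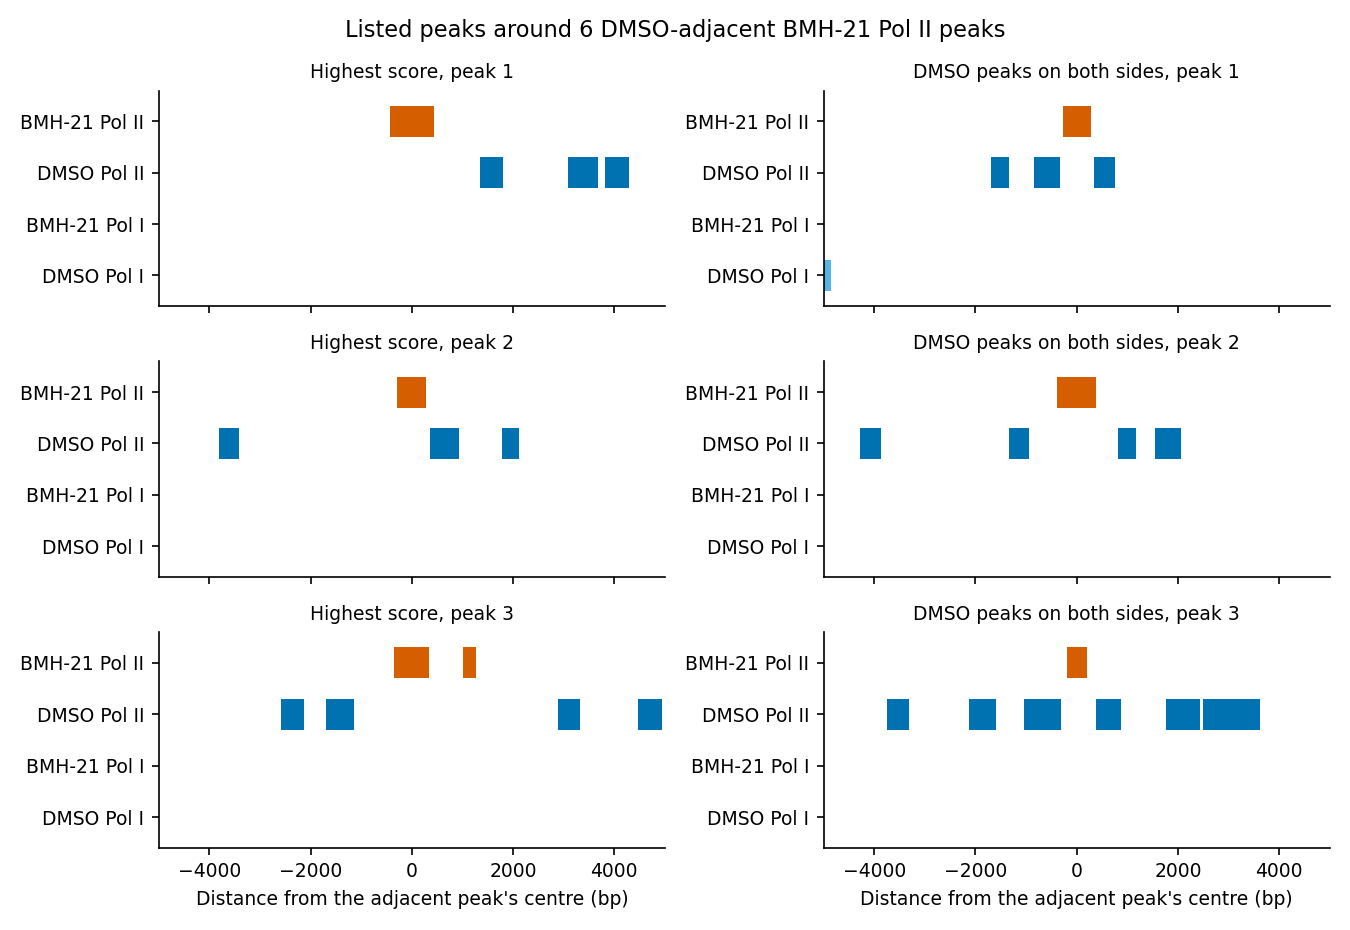
Listed peaks of the 4 libraries (rows) within 5000 bp of the centre of 6 adjacent peaks (horizontal axes, in bp), with the 3 highest-scored adjacent peaks on the left and the 3 highest-scored enclosed ones on the right, in order of score. Each bar is a listed peak drawn to scale and cut at the edge of the window. The orange BMH-21 Pol II bar at 0 stands beside or between blue DMSO Pol II bars, and 1 of the 6 windows holds a DMSO Pol I peak, at its edge.

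Among DMSO peaks with an adjacent BMH-21 peak, the highest score was 999, against 1652 among those without one. The DMSO peak with the score of 999 lay on chromosome 16 at 72821009 to 72824364 and was 3356 bp wide. The BMH-21 peak beside it, at 72820619 to 72820870, had a score of 51.0 and was enclosed, 138 bp from this peak and 224 bp from another DMSO peak with a score of 307. The second, on chromosome 16 at 1660171 to 1662653 (score 835), had a BMH-21 peak with a score of 61.9 at a gap of 211 bp. Beside the third, on chromosome 12 at 118406536 to 118407587 (score 713), the BMH-21 peak had a score of 55.7 and a gap of 345 bp. Scores of different lists may have different scales and are set side by side without comparison.

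The widest adjacent peak, 1618 bp, lay on chromosome 21 at 9948876 to 9950493. It scored 62.9 and stood 29 bp from a DMSO peak 1878 bp wide, and the next listed DMSO peak on its other side was 653638 bp away. The second, 1181 bp, lay on chromosome 16 at 33879174 to 33880354. It scored 51.8 and stood 503 bp from its DMSO neighbour. The third and the fourth were the chromosome 7 peak at 14019999 (951 bp) and the chromosome 10 peak at 70539017 (871 bp) among the leading 10. The fifth lay on chromosome 6 at 141098577 to 141099407 (831 bp, score 128).

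Adjacent peaks were frequent beside dense DMSO runs. With the same definition of a run, 17.8% of all DMSO Pol II peaks stood in 1 of 260 runs. The nearest DMSO peak was in such a run for 600 adjacent peaks (28.6%, interval 26.6 to 30.5), against 459 remaining peaks (5.98%, interval 5.46 to 6.54). This contrast is a description, since the rule placed the remaining peaks more than 1000 bp from any DMSO peak. Of these, 2118 had no DMSO peak within 50 kb. Of the DMSO peaks inside runs, 744 (14.5%, interval 13.6 to 15.5) had an adjacent BMH-21 peak, and of those outside runs 1679 (7.09%, interval 6.77 to 7.43). A dense run offers more edges within reach of a BMH-21 peak, and the part of this in the difference was not tested. Adjacent peaks occurred in 208 of the 260 runs, and 37 runs had 5 or more, with 276 adjacent peaks together.

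The run on chromosome 5 at 107196553 to 107459173 had the most, with 17 adjacent peaks beside its 109 DMSO peaks. Its span of 263 kb held 18 BMH-21 Pol II peaks. The gaps of the 17 ran from 18 to 727 bp, and their highest score was 105. Next was a run of 94 DMSO peaks on chromosome 10 at 80836852 to 81068924, with 15 adjacent peaks and 19 BMH-21 Pol II peaks in its span. A second chromosome 5 run, at 106705975 to 106998013, had 14 adjacent peaks beside 102 DMSO peaks, with 27 BMH-21 Pol II peaks in its span. The run on chromosome 7 at 50654691 to 50860697 had 11. Runs with 10 each lay on chromosome 3 (174615896 to 174799676) and, as a pair, on chromosome 16 (68773556 to 68868847, and 89327953 to 89539673). The short run on chromosome 22 at 36713121 to 36767654, with 16 DMSO peaks over 54.5 kb, had 9, among them the third highest in score. In these 8 spans each BMH-21 Pol II peak lay outside the BMH-21 runs.

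Pol I lists were not used in choosing the peaks and give a separate view of the loci. Of the adjacent peaks, 62 (2.95%, interval 2.27 to 3.77) were overlapped by 1 bp or more by a DMSO Pol I peak, against 855 of the remaining peaks (11.1%, interval 10.4 to 11.9) and 9.38% of all BMH-21 Pol II peaks outside runs. The remaining peaks included 2118 with no DMSO Pol II peak within 50 kb, a class that by the rule holds no adjacent peak, and 442 of these (20.9%, interval 19.2 to 22.7) were overlapped. Without that class the share of remaining peaks was 413 of 5555 (7.43%, interval 6.76 to 8.16). The share was lower among adjacent than among remaining peaks on each of the 24 chromosomes, with all remaining peaks counted, at 0% to 5.66% against 4.99% to 16.6%. In each of 4 score classes and of 4 width classes it was also lower, again with all remaining peaks counted, those without DMSO Pol II within 50 kb included. In the highest score class it was 4.46% (interval 2.85 to 6.61) against 15.0% (interval 13.4 to 16.7). Enclosed peaks were overlapped in 2 of 346 cases (0.578%, interval 0.0701 to 2.07).

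The share changed with distance, and without a step at 1000 bp. It was 4.93% (interval 3.03 to 7.51) for gaps up to 100 bp, 1.96% (interval 0.946 to 3.58) from 250 to 500 bp, and 2.75% from 500 to 1000 bp. Just beyond the limit, from 1000 to 2000 bp, it was 3.17% (interval 2.11 to 4.55). It then reached 7.68% from 5 to 10 kb, 11.4% from 10 to 50 kb and 21.96% (interval 19.7 to 24.3) above 100 kb. DMSO Pol II peaks were placed in the same way by their gap to the nearest BMH-21 Pol II peak. Of these, 7.49% (interval 5.18 to 10.4) were overlapped within 100 bp, 5.89% from 500 to 1000 bp and 35.9% (interval 34.8 to 37.0) above 100 kb. Just beyond the limit the DMSO shares were similar, at 6.53% (interval 5.34 to 7.89) from 1 to 2 kb and 7.50% from 2 to 5 kb. DMSO peaks with an adjacent BMH-21 peak were overlapped by DMSO Pol I in 6.36% (interval 5.42 to 7.40), against 21.8% (interval 21.3 to 22.3) of those without one and 20.5% of all DMSO Pol II peaks. Those without one included the 8046 DMSO peaks above 100 kb, a class that by the rule has no adjacent BMH-21 peak.

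**Figure D4:**
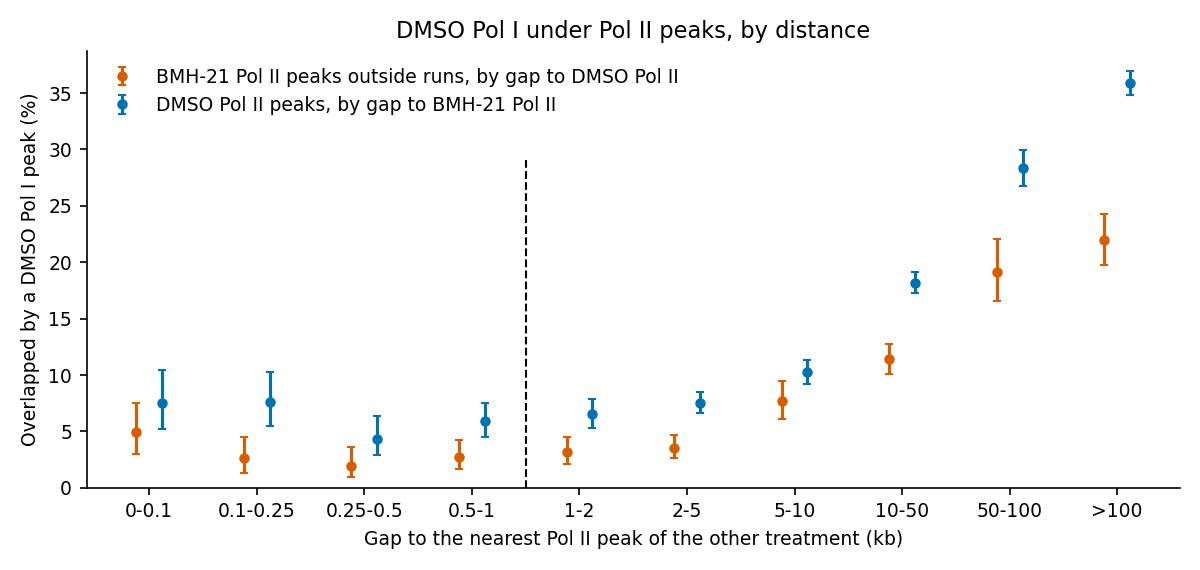
Share of Pol II peaks with an overlapping DMSO Pol I peak, in percent (vertical axis), by the gap to the nearest Pol II peak of the other treatment in kb (horizontal axis, classes of unequal size), for BMH-21 peaks outside runs (orange) and DMSO peaks (blue), with 95% Clopper-Pearson intervals and the 1000 bp limit as a dashed line. BMH-21 peaks stay at or below 4.93% up to 5 kb and reach 21.96% above 100 kb, and DMSO peaks reach 35.9%.

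The density of DMSO Pol II peaks moved with this result. The rule puts a DMSO Pol II peak within 1000 bp of each adjacent peak and of no remaining peak. The contrast in density is therefore a description. Adjacent peaks had a median of 8 DMSO Pol II peaks within 50 kb, and the remaining peaks 2. Among peaks with 1 to 5 such DMSO peaks, DMSO Pol I overlapped 4.65% of adjacent peaks (interval 3.22 to 6.47) and 9.83% of remaining peaks (interval 8.88 to 10.9). With 6 to 10 the shares were 2.97% and 3.22%, with 11 to 20 they were 1.43% and 3.35%, and with 21 or more 1.65% and 1.36%, with intervals that overlapped in each of these 3 classes. The intervals were apart in the class of 1 to 5, but they cover counting error alone, and peaks of 1 cluster are not independent. These classes also do not match the distance to the nearest DMSO Pol II peak, and its part in the difference was not tested. Within 50 kb, adjacent peaks had a mean of 3.66 ± 2.53 DMSO Pol I peaks (SD over 2101 peaks). The 7673 remaining peaks had 2.76 ± 2.16. At a shorter range the order was the reverse. A DMSO Pol I peak overlapped or lay within 1000 bp of 226 adjacent peaks (10.8%) and 1237 remaining peaks (16.1%). These values were not matched for the density of DMSO Pol II peaks, and its part in them was not tested. The nearest DMSO Pol I peak lay at a median of 9.08 kb from an adjacent peak and 11.2 kb from a remaining one.

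At the loci where Pol I was listed, it stood more often over the DMSO neighbour than over the BMH-21 peak. In 114 cases (5.43%, interval 4.50 to 6.48) a DMSO Pol I peak overlapped the nearest DMSO Pol II peak and none overlapped the adjacent BMH-21 peak. The reverse was found in 26 cases (1.24%, interval 0.810 to 1.81), and both were overlapped in 36. DMSO peaks are wider than the BMH-21 peaks and offer more bases to overlap. In 26 of the 62 overlapped cases, 1 DMSO Pol I peak reached over both the BMH-21 Pol II peak and its DMSO neighbour.

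The highest-scored adjacent peak under DMSO Pol I was the chromosome 7 peak at 14019999 to 14020949, which shared 342 bp with a Pol I peak of score 129. On chromosome 1 a peak at 28398844 to 28399444 (score 133) shared 567 bp with a Pol I peak of score 124. On chromosome 15 the peak at 40076480 to 40077090 (score 132) shared 329 bp with a Pol I peak 1031 bp wide, at 40076762 to 40077792, which also reached the DMSO Pol II neighbour. Of these 5 leading cases this was the one with such a bridge. Chromosome 2 held another, at 242034394 to 242034852 (score 126), with 270 bp shared, and chromosome 7 the last, at 73181356 to 73181678 (score 124), with 282 bp shared.

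Pol I after BMH-21 was rarely listed at these sites, and its whole list was short, with 1932 peaks against 42547 for DMSO Pol I. A BMH-21 Pol I peak overlapped 8 adjacent peaks (0.381%, interval 0.165 to 0.749), against 156 remaining peaks (2.03%, interval 1.73 to 2.37) and 1.68% of all BMH-21 Pol II peaks outside runs. It overlapped 0 of 346 enclosed peaks, where a count of 3 would make 0.867%. For BMH-21 Pol II peaks outside runs, the share changed with the gap to DMSO Pol II, without a step at the limit. It was 0.688% (interval 0.224 to 1.60) from 500 to 1000 bp and 1.02% (interval 0.467 to 1.92) from 1 to 2 kb. From 5 to 10 kb it was 0.865%, from 50 to 100 kb 4.83% and above 100 kb 3.96%. One site stood out by the Pol I score. On chromosome 5 the adjacent peak at 71503332 to 71503869 (score 123) lay wholly inside a BMH-21 Pol I peak 1984 bp wide, at 71502230 to 71504213, with a score of 1089. At lower coordinates nearby, the adjacent peak at 71499272 to 71499499 (score 54.3) lay wholly inside a second BMH-21 Pol I peak, with a score of 65.4. A chromosome 13 peak at 50653342 to 50653937 (score 129) held a BMH-21 Pol I peak with a score of 57.3. For another chromosome 5 peak, at 118310177 to 118310354 (score 61.3), the Pol I score was 63.1. In the last of the 5, a chromosome 2 peak at 159971401 to 159971623 (score 53.4), the Pol I score was 55.2.

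Each list numbers its peaks in genome order and skips many numbers. Numbers reached at least 45633 in the BMH-21 Pol II list of 11540 peaks, so most of them are absent. In the DMSO Pol II list of 28798 peaks they reached at least 50696. Of 2099 adjacent peaks with a listed DMSO peak on each side on the chromosome, 1169 (55.7%, interval 53.5 to 57.8) stood between DMSO peaks with consecutive numbers. At those sites the DMSO numbering leaves no place for a numbered DMSO peak that is not listed. For 340 of the 346 enclosed peaks (98.3%) this held, in DMSO stretches with a median of 1054.5 bp. Among the remaining peaks the share was 23.6% (interval 22.6 to 24.5), but the DMSO stretches differed in length, with a median of 5363 bp around adjacent peaks against 109974 bp around the remaining ones. Stretches up to 2000 bp held 452 adjacent peaks, with a share of 95.1%, and by the rule 0 remaining peaks, so they allow no comparison. In longer stretches of like length the shares came close, at 61.0% against 56.04% from 2000 to 5000 bp. They were 47.8% against 48.1% from 5000 to 20000 bp and 33.0% against 29.6% from 20000 to 100000 bp.

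The nearest DMSO neighbour stood between consecutive BMH-21 numbers for 703 adjacent peaks (33.5%, interval 31.4 to 35.5). For 407 adjacent peaks (19.4%, interval 17.7 to 21.1) both conditions held, so that neither numbering has room for a numbered but unlisted peak at the position of the other treatment's peak. The other sites cannot be read that way, since skipped numbers may hold peaks that are not in the lists. A skipped BMH-21 number directly before or after was found for 1814 adjacent peaks (86.3%, interval 84.8 to 87.8) and for 83.4% of the remaining peaks (interval 82.6 to 84.2).

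Adjacent peaks were found on all 24 chromosomes, in numbers from 6 on Y to 203 on chromosome 1. Chromosome 19 had the highest share of its BMH-21 Pol II peaks outside runs beside a DMSO peak, 159 of 500 (31.8%, interval 27.7 to 36.1), followed by chromosome 10 with 134 of 481 (27.9%, interval 23.9 to 32.1) and chromosome 22 with 53 of 204 (26.0%, interval 20.1 to 32.6). The lowest shares were 6 of 59 on Y (10.2%, interval 3.82 to 20.8) and 26 of 191 on X (13.6%, interval 9.09 to 19.3), and the median over chromosomes was 20.4%. Chromosome 19 also had the most adjacent peaks per Mb, 2.69, and the most DMSO Pol II peaks per Mb, 29.2. Across the 24 chromosomes the share followed the density of DMSO Pol II peaks, with a Pearson r of 0.749 and a Spearman rho of 0.777. The chromosomes share their 2 libraries, and a denser DMSO list brings more BMH-21 peaks within reach, so these values are a description. Chromosome 17 departed from the order, with 19.4 DMSO peaks per Mb and a share of 19.6% (interval 16.2 to 23.3).

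**Figure D5:**
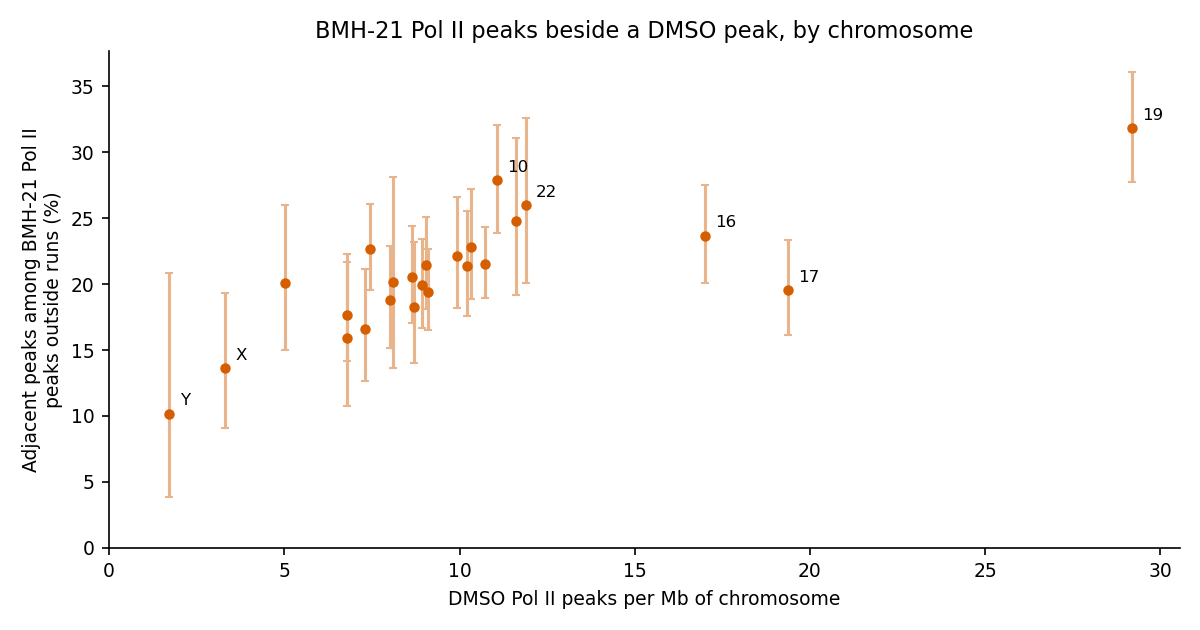
Share of BMH-21 Pol II peaks outside runs that lie beside a DMSO Pol II peak in percent (vertical axis) against DMSO Pol II peaks per Mb (horizontal axis), 1 point for each of 24 chromosomes, with 95% Clopper-Pearson intervals. Chromosome 19 stands at the upper right with 31.8%, Y and X at the lower left with 10.2% and 13.6%, and chromosome 17 lies below chromosomes of lower density.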

How the data were processed

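Each of the 4 deposited peak lists, 1 per ChIP library, gives chromosome, start, end, a running number and a score. The score stands under a p-value heading, per the file headers; its values start at 50, so it was read as the authors' score of unstated scale. The tools named were Bowtie2 2.2.1, deepTools 3.5.4 and CASAVA 1.8.2, with the build hg19, per the submitters' processing notes. Peak names begin with MACS; its version and settings, the use of inputs, duplicate handling and the selection of listed peaks are not given in these sources. Read depth is unknown, and no adjustment for it was possible.

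The adjacent peaks, the groups they are set against and all classes were chosen with earlier results of these data known. Printed starts are 1-based. A gap is the number of bases between facing edges, overlap is 1 bp or more, and a skipped number is one absent from a list between listed neighbours. Chromosome length for densities is the end of its last listed peak. Named regions follow a fixed rule (the leading 10 by score, 5 each by width, by score under either Pol I list and by score with DMSO peaks on both sides, 5 DMSO peaks with the most neighbours, and neighbours of the 3 highest-scored DMSO peaks). Planned values at gene starts, in gene lists and from sequence were not computed, since no hg19 annotation or genome was used. Density, run, numbering, window and distance classes were chosen after seeing the data, as were the named runs, clusters and windows. The step that finds the adjacent peaks was run on simulated lists with planted positions. Python 3.11.15, NumPy 2.4.6, pandas 2.3.3, SciPy 1.17.1 and matplotlib 3.10.9 were used. The distance, runs, score, width, chromosomes and overlap were varied.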

Additional observations from a re-analysis of the deposited data

How the results depend on the processing

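Under 12 alternatives, 58 of 94 values remained within 1.5 times the count or inside the 95% interval of the main value, and 36 did not; those follow from the changed limit or filter by construction, or the cause was not tested. A limit of 250 bp gave 865 adjacent peaks (7.50% of the list), a median gap of 107 bp, 5.90% enclosed, 0.116% under BMH-21 Pol I and 88.2% beside a skipped number. With 500 bp there were 1374 (11.9%), a gap of 181 bp and 10.3% enclosed, and with 2000 bp 25.9% of the list, 557 bp, 23.3% and, beside a skipped number, 84.6%. With BMH-21 runs kept in, the share was 19.2% and 84.5% stood beside a skipped number; with runs by gaps up to 20 kb it was 16.6%. Without DMSO runs as neighbours it was 13.0%, with 13.1% enclosed. Scores at or above each list's median left 495 (8.57%), with a gap of 372 bp, width of 307 bp, score of 72.02, 9.70% enclosed, 3.84% under DMSO Pol I and 90.5% beside a skipped number. Widths of at least 300 bp left 613 (13.7%), with a gap of 356 bp, width of 351 bp, score of 74.96 and 4.89% under DMSO Pol I. DMSO Pol I came to 2.24% when 50% of the shorter peak had to be shared and 10.8% within 1000 bp, where BMH-21 Pol I came to 0.809%. The share of adjacent peaks under DMSO Pol I thus ran from 2.24% to 4.89% under the alternatives of overlap, score, width, distance, runs and chromosomes other than the 1000 bp window. Peaks that miss the lists' score of 50 could not be counted. No paired analysis was possible because each group had 1 sample.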

Other observations

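The adjacent peaks fell into 825 windows of 1 Mb, of which 374 held 1 and 116 held 5 or more, with 851 adjacent peaks together. No window counts of the remaining peaks are set beside these. A window dense in DMSO Pol II peaks brings more BMH-21 peaks within reach, so the counts are a description. Of all BMH-21 Pol II peaks outside runs, 21.5% were adjacent. Chromosome 5 had the windows with the most, 19 of 24 BMH-21 Pol II peaks outside runs between 107 and 108 Mb and 17 of 63 between 70 and 71 Mb. The first of these held 135 DMSO Pol II peaks and the second 65. The window from 174 to 175 Mb of chromosome 3 had 16 of 25, and that from 58 to 59 Mb of chromosome 19 had 14 of 27. Within 1 Mb of the longest stretch of a chromosome without any listed peak lay 16 adjacent peaks (0.762%, interval 0.436 to 1.23), against 229 remaining BMH-21 Pol II peaks outside runs (2.98%, interval 2.62 to 3.39). By the rule each adjacent peak has a DMSO Pol II peak within 1000 bp, while 27.6% of remaining peaks had none within 50 kb. The part of this in the difference was not tested. BMH-21 runs held 117 further peaks within 1000 bp of a DMSO Pol II peak, which the run rule left out.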
